A study of Mus musculus with 2 samples.

Results

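The RNAs described here are 8 long noncoding RNAs, most of them known to stay in the nucleus, and 2 genes that GENCODE lists as protein coding: *Malat1*, *Neat1*, *Miat*, *Meg3*, *Rian*, *Mirg*, *Kcnq1ot1*, *Snhg14*, *Snhg11* and *Peg3*. They were taken by gene symbol, and all 10 were found once among the 32285 genes of the count tables. The protein-coding entries are *Snhg11* and *Peg3*. The RNAs were measured in Cajal-Retzius (CR) cells of the hippocampus, early-born neurons that secrete reelin and largely die in the weeks after birth. The cells had been sorted as tdTomato-positive and DAPI-negative from mice at postnatal day 14. Each library pooled 4 littermates of 1 genotype: 3 males and 1 female of ΔNp73-Cre; Cic flox/+; tdT for the control, and 2 males and 2 females of ΔNp73-Cre; Cic flox/flox; tdT for the knockout. Both groups therefore carried Cre, the tdTomato reporter and at least 1 floxed allele of *Cic*, the gene of the repressor capicua, and the controls were conditional heterozygotes. The Cre acts in the progenitors of CR cells, and the study's protein staining found capicua lost from only part of the CR cells, so the knockout library can hold cells that still had it. There was 1 library per genotype, so no difference below has a replicate check, no p-value is given, and every interval is a 95% exact interval for counting error only.

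A barcode was taken as a CR cell when it held at least 2000 UMIs (unique molecular identifiers, each marking 1 captured RNA molecule) and at least 5 UMIs of *Reln*. This left 1003 control and 390 knockout cells, and no barcode sequence was a cell in both libraries. Cells were split by the share of UMIs from nuclear genes of oxidative phosphorylation (OXPHOS), the subunits of the respiratory chain and of ATP synthase: under 1.8% (low, 920 control and 356 knockout cells) or at least 1.8% (high, 83 and 34 cells). The median cell held 6064 and 6419.5 UMIs among the low cells, and 13502 and 14229.5 among the high cells. Barcodes of 20 to 100 UMIs, 29040 control and 75813 knockout, stand for droplets without a whole cell and are called faint. Of their barcode sequences 565 were faint in both libraries, 22 were a control cell and faint in the knockout, and 1 the reverse. Levels are given as CPM, UMIs per 1000000 UMIs outside the mitochondrial and ribosomal protein genes. A 3′ assay of this kind tags each RNA near a run of A, so CPM was not divided by gene length.

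Nuclear long noncoding RNAs act where they are made or at nuclear bodies. Malat1 gathers in nuclear speckles, where splicing factors are stored, and Neat1 is the scaffold of paraspeckles. Meg3, Rian and Mirg are transcribed from the maternal chromosome at the imprinted Dlk1-Dio3 locus, and they carry small nucleolar RNAs and microRNAs within them. Kcnq1ot1 is made from the paternal chromosome and silences neighbouring genes in cis, and Snhg14 in neurons runs antisense across Ube3a and keeps its paternal copy silent. *Peg3* is also expressed from the paternal copy but encodes a zinc finger protein, so its RNA is translated in the cytoplasm.

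All 10 genes were placed by Ensembl identifier on GRCm38 (GENCODE M21). *Malat1* lies at chr19:5795690-5802672 and *Neat1* beside it at chr19:5824708-5845478, both on the minus strand. *Meg3* (chr12:109541001-109571726), *Rian* (chr12:109603940-109661716) and *Mirg* (chr12:109729764-109749460) follow each other on the plus strand. *Peg3* (chr7:6703892-6730431), *Snhg14* (chr7:59307924-59975759) and *Kcnq1ot1* (chr7:143203458-143296549) are on the minus strand of one chromosome, *Miat* is at chr5:112213228-112229395 on the minus strand and *Snhg11* at chr2:158375638-158386145 on the plus strand. *Kcnq1ot1* overlaps *Kcnq1*, *Snhg14* overlaps *Ube3a* and *Miat* overlaps *Gm26953* on the other strand, and *Snhg14* also overlaps *Gm38393* on the same strand. The strand setting of the counting is not given in the sources used here, so the values of these 3 are uncertain to that extent.

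The promoters are shown for the 2 imprinted genes, 1 expressed from each parental copy, that share a sequence the choice of genes did not use. Both are RefSeq windows (GRCm38.p6) from 250 bases before to 50 bases after the start. The capitals mark the cAMP response element TGACGTCA, a palindrome searched once, which begins 57 bases before the *Meg3* start and 178 bases before the *Peg3* start.
Meg3 promoter, chr12:109540746-109541045, plus strand: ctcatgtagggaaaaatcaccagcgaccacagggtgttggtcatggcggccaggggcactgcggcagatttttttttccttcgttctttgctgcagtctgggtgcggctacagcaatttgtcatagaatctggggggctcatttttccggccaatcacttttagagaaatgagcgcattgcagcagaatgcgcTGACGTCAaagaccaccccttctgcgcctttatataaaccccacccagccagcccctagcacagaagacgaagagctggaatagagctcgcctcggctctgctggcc
Peg3 promoter, chr7:6730370-6730669, minus strand: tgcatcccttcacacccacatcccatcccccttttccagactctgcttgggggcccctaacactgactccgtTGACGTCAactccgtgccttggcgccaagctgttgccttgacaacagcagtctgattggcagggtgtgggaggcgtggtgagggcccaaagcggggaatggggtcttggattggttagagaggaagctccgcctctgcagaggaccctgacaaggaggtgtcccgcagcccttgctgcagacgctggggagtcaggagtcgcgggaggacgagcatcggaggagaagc

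The same 8 letters stood in 1.79% of the 32851 RefSeq promoters of this length used here, and the motif was looked for after the sequences had been seen. The capicua motif, searched on both strands as TGAATGAA, TGAATGGA, TCAATGAA and TCAATGGA, was in none of the 10 promoters of the 9 genes with an entry, against 3.84% of the 32851 promoters. These promoters do not cover every chromosome. *Neat1* had no entry, and the second *Meg3* window held no cAMP response element. The RefSeq windows need not match the GENCODE genes that were counted. That of *Snhg14* (chr7:60450128-60450427) lies outside its GENCODE span, and that of *Mirg* (chr12:109734731-109735030) lies within its span, past the GENCODE start. These matches describe letters in a window and nothing more.

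A stretch of *Malat1* is shown because the assay primes on runs of A. The capitals mark the run of 12 A that lies 298 bases before the end of its GENCODE transcript (GRCm38), where a primer could bind inside the RNA.
Malat1, chr19:5795948-5796039, minus strand: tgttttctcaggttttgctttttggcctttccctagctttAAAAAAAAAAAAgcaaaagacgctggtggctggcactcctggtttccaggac

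Runs of at least 10 A, with the last 30 bases of each longest transcript left out, were found in 6 of the 10 genes, against 12.02% of 32158 counted genes. The share over all genes was not matched for transcript length, so nothing is read from this contrast. *Kcnq1ot1*, the longest transcript at 93092 bases, held 10 such runs, the longest of 41 A. *Meg3* held 6, and *Rian*, *Snhg14* and *Peg3* held 1 each beside that of *Malat1*. The part of such runs in the levels below was not tested.

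MicroRNAs are shown for the imprinted hosts on chromosome 12, since their spans hold RefSeq microRNA hairpins, 1 in *Meg3*, 3 in *Rian* and 14 in *Mirg*, and none in the other 7 genes. The capitals mark the seed, bases 2 to 8. Of the 26 mature microRNAs in *Mirg*, the first pair below share a seed and the others differ from each other, while the third is from *Meg3*.
mmu-miR-453: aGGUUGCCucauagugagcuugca
mmu-miR-496a-5p: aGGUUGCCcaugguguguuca
mmu-miR-770-5p: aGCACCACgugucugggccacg

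The assay counts tags of the host RNAs and not these microRNAs.

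The 10 RNAs together made up 8.29% of the counted UMIs of control low cells and 8.25% of knockout low cells. In high cells they were 3.80% and 4.02%, and in faint barcodes 1.07% and 0.998%. *Malat1* had the most UMIs of all genes in the low cells of both libraries, *Snhg11* ranked 6 in both, and *Meg3* ranked 10 in the control and 8 in the knockout. Below them in control low cells came *Kcnq1ot1*, *Snhg14* and *Rian*, where each neighbour's interval overlapped the next, then *Peg3*, then *Miat* and *Mirg*, whose intervals also overlapped, and last *Neat1*. The same order held in knockout low cells, except that *Mirg* stood just above *Miat*, with overlapping intervals.

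**Figure D1:**
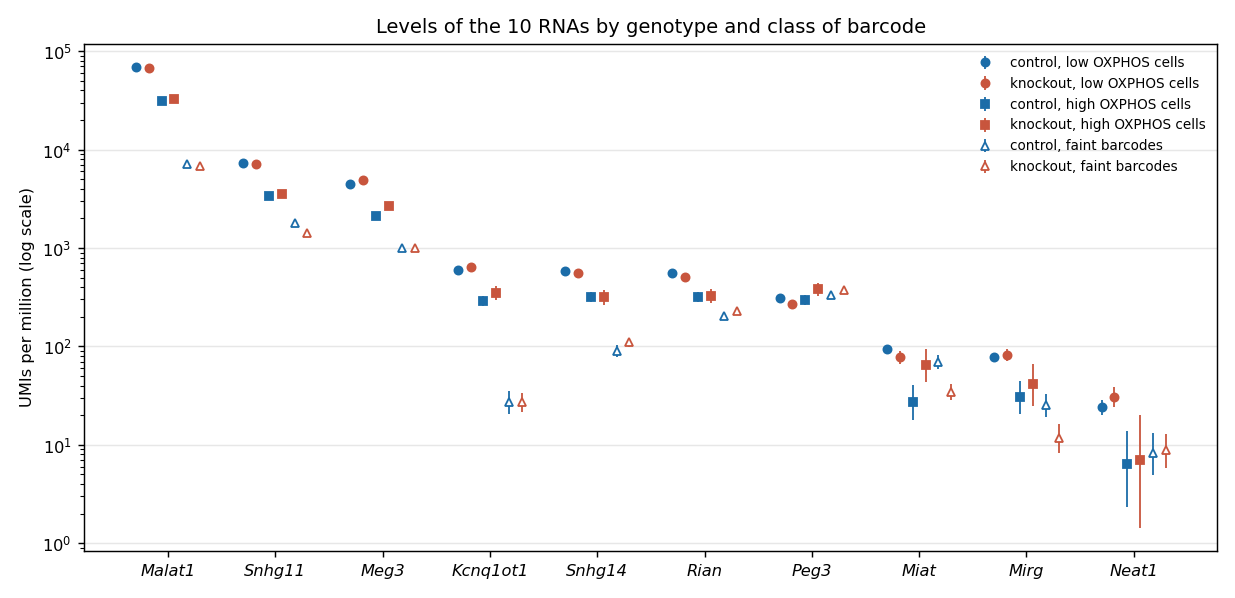
Level of each of the 10 RNAs in CPM on a log axis, in low OXPHOS cells, high OXPHOS cells and faint barcodes of the control and knockout libraries, with 95% exact Poisson intervals (1 library per genotype). The libraries differed most for *Miat* in high cells (27.6 and 64.8 CPM) and for *Miat* and *Mirg* in faint barcodes. As shares, the 9 RNAs other than *Peg3* were lower in high than in low OXPHOS cells of both, with overlapping intervals for *Miat* in the knockout. *Kcnq1ot1* in faint barcodes, at 27.1 and 27.0 CPM, stood farthest below its low-cell level of 603 and 637.

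The first comparison set the high OXPHOS cells against the low cells of the same library. In the control, 9 of the 10 RNAs made up a share of UMIs at least 1.5-fold lower in the high cells, and *Peg3* did not. In the knockout, 9 of the 10 had at least 100 UMIs over both classes, the minimum for a call, and 7 of these were at least 1.5-fold lower. In the control, *Neat1*, *Mirg* and *Miat* met this minimum only through the low cells, with 136, 446 and 531 UMIs there against 6, 29 and 26. *Mirg* and *Miat* in the knockout did so as well, with 192 and 182 against 18 and 28. Their ratios rest on few UMIs in high cells, and the same filter bore on all genes. Of all genes with 100 UMIs, 27.7% of 8304 in the control and 25.4% of 5226 in the knockout were at least 1.5-fold lower, and 24.6% and 21.7% at least 1.5-fold higher, which none of the 10 was. Of long noncoding RNAs by GENCODE type, counted after the values were seen, 76.5% of 447 and 69.0% of 226 were at least 1.5-fold lower. The counts of the 10 RNAs thus lay nearer to the shares of this type than to those of all genes. The OXPHOS genes set the classes and none of them is among the 10 RNAs. The median ratio over the 10 was 0.472 in the control and over the 9 counted in the knockout 0.545, beside 0.896 and 0.885 over all genes tested.

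Among the RNAs of nuclear bodies, *Malat1* was at 68893 CPM (68677 to 69110) in control low cells and 68240 (67905 to 68576) in knockout low cells. In high cells it was at 31228 (30873 to 31587) and 32427 (31892 to 32968). The ratios of high to low were 0.453 (0.448 to 0.459) and 0.475 (0.467 to 0.483), and the intervals of the classes stood apart in both libraries. Over single cells the median *Malat1* level was 67506 CPM in control low and 30075 in control high cells, and 80 of the 83 control high cells, 96.4%, and 34 of the 34 knockout high cells lay below the low median. *Malat1* in UMIs per cell differed less than its share, with 424 in low and 355 in high control cells, and 447 and 412 in the knockout.

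*Neat1*, the paraspeckle scaffold, was scarce: 136 UMIs over the control low cells, or 24.0 CPM (20.2 to 28.4), and 6 UMIs over the high cells, or 6.36 (2.33 to 13.8). The control ratio was 0.265 (0.0954 to 0.591). In the knockout, 72 and 3 UMIs gave 0.225 (0.0454 to 0.685), under the minimum for a call. *Neat1* had a UMI in 11.2% of control low cells, so these are differences in a few cells.

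*Miat*, an RNA of neuronal nuclei, was the member on which the libraries disagreed most. In the control it was at 93.8 CPM (86.0 to 102) in low and 27.6 (17.997 to 40.4) in high cells, a ratio of 0.294 (0.190 to 0.435). In the knockout it was at 78.0 (67.1 to 90.2) and 64.8 (43.1 to 93.7), a ratio of 0.831 (0.537 to 1.24). In UMIs per cell *Miat* was at 0.577 in low and 0.313 in high control cells, and 0.511 and 0.824 in the knockout. The high cells held only 26 and 28 *Miat* UMIs, and the knockout interval covers no difference. A single knockout cell held 8 of the 28. Without it, an alternative added after the data were seen, the knockout ratio was 0.628 (0.374 to 0.998). The cell was picked for its high *Miat* count, so a lower ratio was fixed in advance and nothing is read from its direction.

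Of the maternally expressed RNAs of the Dlk1-Dio3 locus, *Meg3* was the most abundant. It was at 4484 CPM (4429 to 4539) in control low and 2139 (2047 to 2235) in control high cells, a ratio of 0.477 (0.456 to 0.499). In the knockout it was at 4956 (4866 to 5047) and 2678 (2526 to 2837), a ratio of 0.540 (0.508 to 0.574). *Meg3* lay below the low-cell median in 82 of the 83 control and 32 of the 34 knockout high cells. In UMIs per cell it hardly differed: 27.6 in low and 24.3 in high control cells, 32.5 and 34.0 in the knockout.

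*Rian*, which hosts small nucleolar RNAs and microRNAs downstream of *Meg3*, was at 558 CPM (539 to 578) in control low and 318 (283 to 356) in control high cells. The ratio was 0.570 (0.504 to 0.641), and that of the knockout, from 512 (483 to 542) to 329 (277 to 387), was 0.642 (0.536 to 0.765). In UMIs per cell *Rian* was not lower, at 3.43 in low and 3.61 in high control cells, and 3.36 and 4.18 in the knockout. *Mirg*, the microRNA host, was at 78.8 (71.7 to 86.5) and 30.7 (20.6 to 44.1) in the control, and at 82.3 (71.0 to 94.8) and 41.7 (24.7 to 65.9) in the knockout. Its ratios were 0.390 (0.258 to 0.568) and 0.507 (0.294 to 0.822). In the knockout 1 high cell held 11 of the 18 *Mirg* UMIs of that class. Without it (likewise added later) the knockout ratio was 0.1996 (0.0792 to 0.419), a fall fixed in advance as for *Miat*. The ratios of the 3 neighbours on chromosome 12 were thus all below 1 in both libraries, with each interval below 1.

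The antisense RNA *Kcnq1ot1* was at 603 CPM (583 to 624) in control low and 292 (259 to 329) in control high cells, and at 637 (605 to 670) and 347 (294 to 407) in the knockout. The ratios were 0.485 (0.427 to 0.548) and 0.545 (0.458 to 0.646). In UMIs per cell *Kcnq1ot1* was at 3.71 in low and 3.33 in high control cells, and 4.17 and 4.41 in the knockout. *Snhg14*, the RNA antisense to *Ube3a*, was at 581 (562 to 602) and 316 (281 to 354) in the control, ratio 0.543 (0.481 to 0.612). In the knockout it was at 560 (530 to 591) and 315 (264 to 372), ratio 0.563 (0.468 to 0.672). *Ube3a* itself, the sense partner of *Snhg14*, had ratios of 0.540 and 0.573, close to those of *Snhg14*, and reads of the pair cannot be told apart without strand.

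*Snhg11*, a host of small nucleolar RNA abundant in neurons, was at 7233 CPM (7163 to 7304) in control low and 3372 (3256 to 3491) in control high cells, a ratio of 0.466 (0.449 to 0.483). In the knockout it was at 7084 (6977 to 7193) and 3561 (3385 to 3743), a ratio of 0.503 (0.477 to 0.530). Per cell *Snhg11* was at 44.5 UMIs in low and 38.3 in high control cells, and 46.4 and 45.2 in the knockout. Of the control high cells, 81 of 83 lay below the median of the low cells, as with *Malat1* and *Meg3*.

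*Peg3*, the member whose RNA encodes a known protein, did not share this pattern. It was at 308 CPM (294 to 323) in control low and 299 (265 to 336) in control high cells, a ratio of 0.969 (0.851 to 1.10). In the knockout it was at 272 (251 to 294) and 382 (326 to 445), a ratio of 1.41 (1.18 to 1.67), higher by less than 1.5-fold. In UMIs per cell it was the one RNA of the 10 whose interval in high cells lay above that in low cells in both libraries, 3.40 against 1.90 in the control and 4.85 against 1.78 in the knockout. Only 38 of 83 control high cells, 45.8%, and 12 of 34 knockout high cells lay below the low median for *Peg3*.

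**Figure D2:**
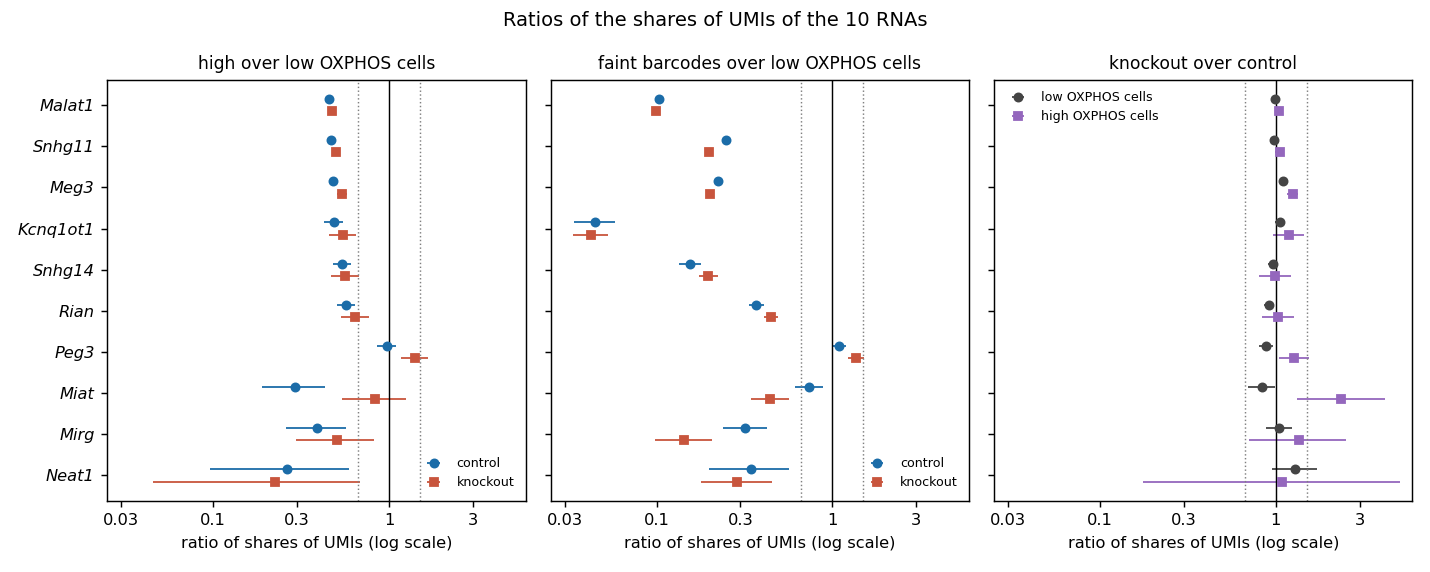
Ratios of the share of UMIs with 95% exact intervals on a log axis, for high over low OXPHOS cells (left), faint barcodes over low cells (middle) and knockout over control (right); the solid line marks 1 and the dotted lines 1.5-fold. In the left panel *Peg3* stands near or above 1, at 0.969 and 1.41, and the other RNAs stand left of 1, with *Miat* of the knockout at 0.831.

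The share of cells with a UMI follows depth, and the high cells were deeper, so each cell was also thinned to 2000 counted UMIs, which left out 2 control low cells and 1 control high cell. *Rian* had a UMI in 89.6% of control low and 92.8% of control high cells, and after thinning in 63.6% (60.4 to 66.7) and 45.1% (34.1 to 56.5). *Peg3* went from 73.0% and 85.5% to 42.3% (39.0 to 45.5) and 42.7% (31.8 to 54.1). *Miat* went from 39.9% and 27.7% to 15.9% (13.6 to 18.4) and 2.44% (0.297 to 8.53), the latter from 2 cells. In the knockout the intervals after thinning overlapped for these 3: *Rian* was at 60.7% (55.4 to 65.8) and 17 of 34 cells (32.4% to 67.6%), *Peg3* at 42.4% and 47.1%, and *Miat* at 13.5% (10.1 to 17.5) and 11.8% (3.30 to 27.5). They stood apart for *Kcnq1ot1*, which after thinning was at 62.9% (57.7 to 68.0) of low and 38.2% (22.2 to 56.4) of high knockout cells. In the control *Kcnq1ot1* was at 63.3% (60.1 to 66.4) and 35.4% (25.1 to 46.7).

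*Malat1* had a UMI in every low cell of both libraries but in 91.6% (83.4 to 96.5) of control and 91.2% (76.3 to 98.1) of knockout high cells. Faint barcodes held a *Malat1* UMI in 38.2% and 20.7% of cases, at a median of 89 and 44 UMIs, so a single *Malat1* UMI in a cell is at the background of free RNA.

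The high cells without *Malat1* belonged to a small group that stood apart, described after its values were seen. In 9 control and 3 knockout cells, all in the high class, at most 2 UMIs of *Malat1* were counted, while every other gated cell had at least 31, and every other high cell at least 75. These 12 cells held 2209 to 6025 UMIs (control) and 4241 to 5653 (knockout), 6 to 36 and 8 to 19 UMIs of *Reln*, and 4 to 8 of the 9 CR markers. *Trp73*, the gene behind the Cre driver, had a UMI in 7 of the 9 and 3 of the 3. Their OXPHOS share was 3.75% to 5.78% and 5.03% to 6.28%, and their median mitochondrial share was 4.88% and 4.99%, against 1.62% and 2.03% in the other high cells.

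None of the 12 cells had a UMI of *Meg3*, *Neat1*, *Mirg*, *Miat* or *Kcnq1ot1*. For *Meg3* this allows up to 106 CPM over the 9 control cells and 277 over the 3 knockout cells (3 counts over each group; exact upper limits of 131 and 341), below the 2205 and 2747 CPM of the other high cells. *Snhg11* had 2 UMIs in each group, 70.9 CPM (8.58 to 256) and 185 (22.4 to 667), against 3474 and 3647 in the other high cells. *Rian* had 4 and 2 UMIs, 142 CPM (38.6 to 363) and 185 (22.4 to 667), against 323 and 332. The *Rian* intervals cover the levels of the other high cells, and the counts of 0 of *Neat1*, *Mirg* and *Miat* in so few cells allow the levels those RNAs had there. *Snhg14* had 1 UMI in each.

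*Peg3* had 10 UMIs in 5 of the 9 control cells and 5 UMIs in 2 of the 3 knockout cells. These gave 354 CPM (170 to 652) and 462 (150 to 1077), intervals that cover the 297 and 380 CPM of the other high cells. Without the 12 cells, 9 of 10 RNAs in the control and 7 of 9 in the knockout were still at least 1.5-fold lower in the high class, an alternative added after the data were seen. The share of all genes was not counted for this set of cells, and was 27.7% and 25.4% with the 12 cells included. *Malat1* in the other high cells was at 32188 and 33261 CPM.

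**Figure D3:**
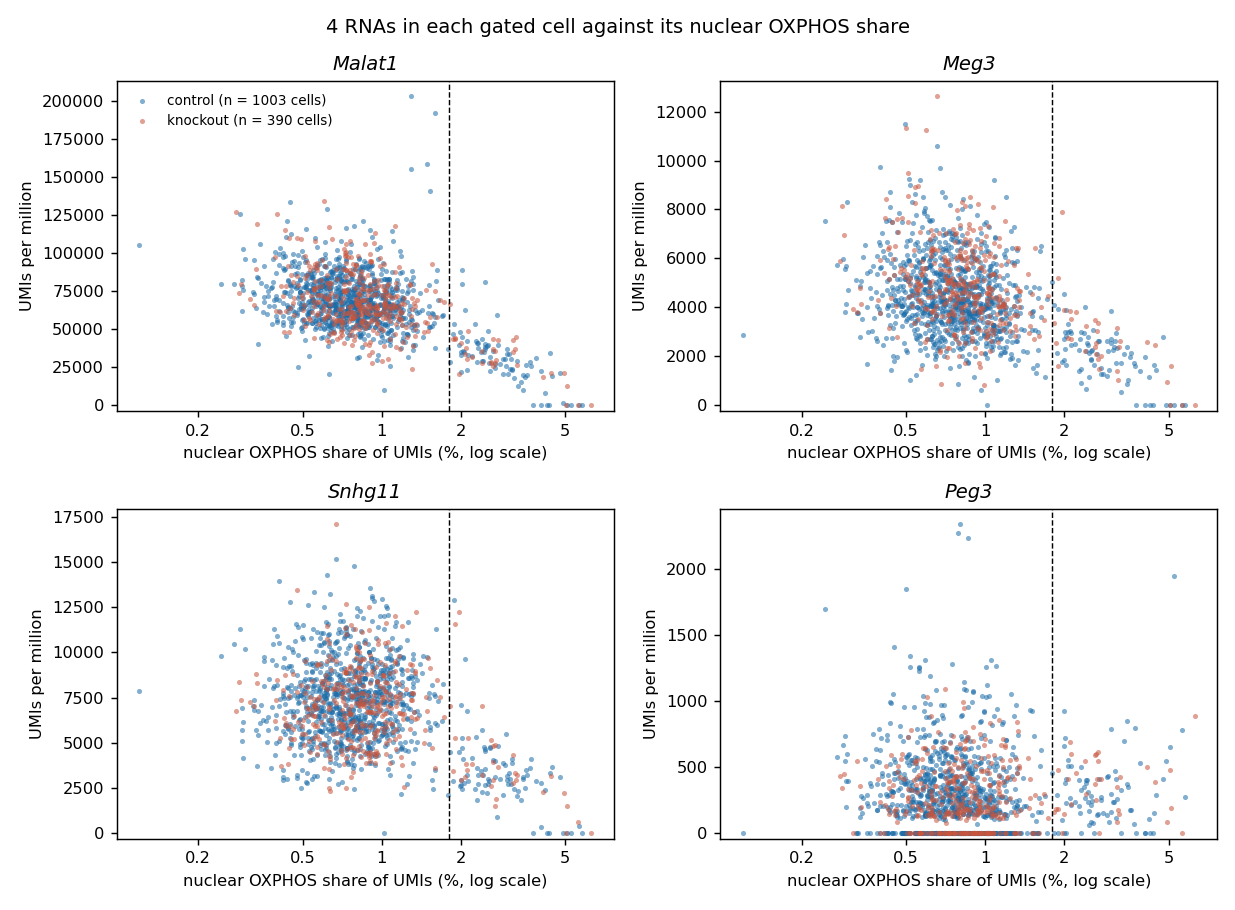
*Malat1*, *Meg3*, *Snhg11* and *Peg3* (CPM) in each gated cell against its nuclear OXPHOS share in percent, control and knockout cells in different colours, with a dashed line at the split of 1.8% (log axis for the share). *Malat1*, *Meg3* and *Snhg11* step down to the right of the split, where the 12 cells with at most 2 *Malat1* UMIs lie at the bottom, while *Peg3* shows no step down.

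Across bins of OXPHOS share, *Malat1* declined within the low cells and then dropped near the split. In the control it was at 73346 CPM in the 244 cells under 0.6%, 69872 from 0.6% to 0.8%, 67003 from 0.8% to 1.0% and 63043 from 1.0% to 1.8%. It then stood at 38746 in the 33 cells from 1.8% to 2.5%, at 28319 from 2.5% to 3.5% and at 19852 in the 19 cells above 3.5%. The knockout bins ran in the same order, from 76406 in 73 cells under 0.6% to 62737 from 1.0% to 1.8%, and on to 36732, 33842 and 15033 in bins of 13, 14 and 7 cells. Bins of under 20 cells are thin, and the last one of each library holds all of its cells with at most 2 *Malat1* UMIs.

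Just below the split, from 1.5% to 1.8%, *Malat1* was at 61479 CPM in 19 control cells and 68173 in 7 knockout cells, and just above it, to 2.1%, at 40410 in 14 and 41375 in 7. In UMIs per cell *Malat1* showed no such drop at the split: it was at 370 and 373 in the bins from 1.0% to 1.8%, at 464 and 491 from 1.8% to 2.5%, and at 169 and 127 above 3.5%. *Peg3* as a share went from 274 CPM (244 to 307) below the split to 321 (268 to 383) above it in the control, and from 265 (222 to 313) to 414 (324 to 522) in the 13 knockout cells. Per cell, *Peg3* went from 1.61 in the control bin below the split to 3.85 in the bin above it, and from 1.57 to 5.54 in the knockout.

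**Figure D4:**
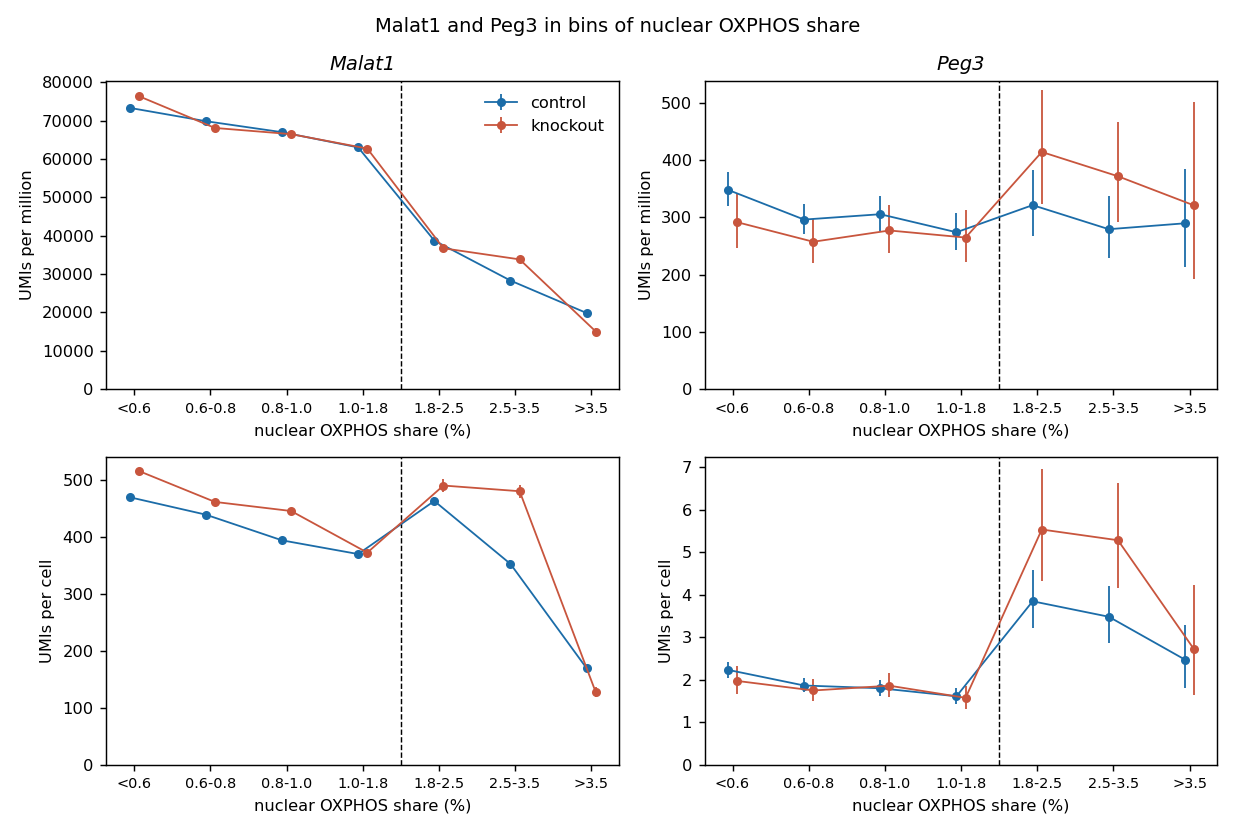
*Malat1* and *Peg3* in bins of nuclear OXPHOS share, as CPM and as UMIs per cell, for the control and the knockout library, with 95% exact Poisson intervals. Lines join the bins, and the dashed line marks the split at 1.8%. *Malat1* falls from 73346 to 19852 CPM across the control bins, and *Peg3* per cell is 1.61 to 2.23 in the control bins below 1.8% and 2.47 to 3.85 above.

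Among the low cells, *Malat1* also followed the mitochondrial share of the cell. In 4 equal groups of rising mitochondrial share it was at 74695, 70552, 66111 and 63364 CPM in the control, and at 81042, 68510, 64420 and 58544 in the knockout. Across low cells, Pearson's r of the log-transformed *Malat1* share with the mitochondrial share was -0.31 (n = 920) and -0.48 (n = 356). These values are a description over cells of 1 library that share their depth. High cells, which had less *Malat1*, had the lower mitochondrial share (median 1.66% and 2.05% against 3.30% and 3.90%). The part of mitochondrial share in the difference between the classes was not tested. *Meg3* went from 4676 to 4276 and from 5283 to 4798 CPM between the first and the last of these groups.

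*Kcnq1ot1* was the member that moved most with depth. In 4 equal groups of rising UMIs per low cell it was at 414 (373 to 458), 559, 578 and 730 CPM (694 to 768) in the control, and at 450 (384 to 524), 515, 557 and 849 (788 to 913) in the knockout. The r of its log-transformed share with log10 UMIs was 0.33 and 0.30. *Malat1* ran the other way, from 71791 to 65999 and from 73354 to 63487 CPM. *Kcnq1ot1* was lower in the high cells, which had the most UMIs, and the part of depth in that difference was not tested.

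**Figure D5:**
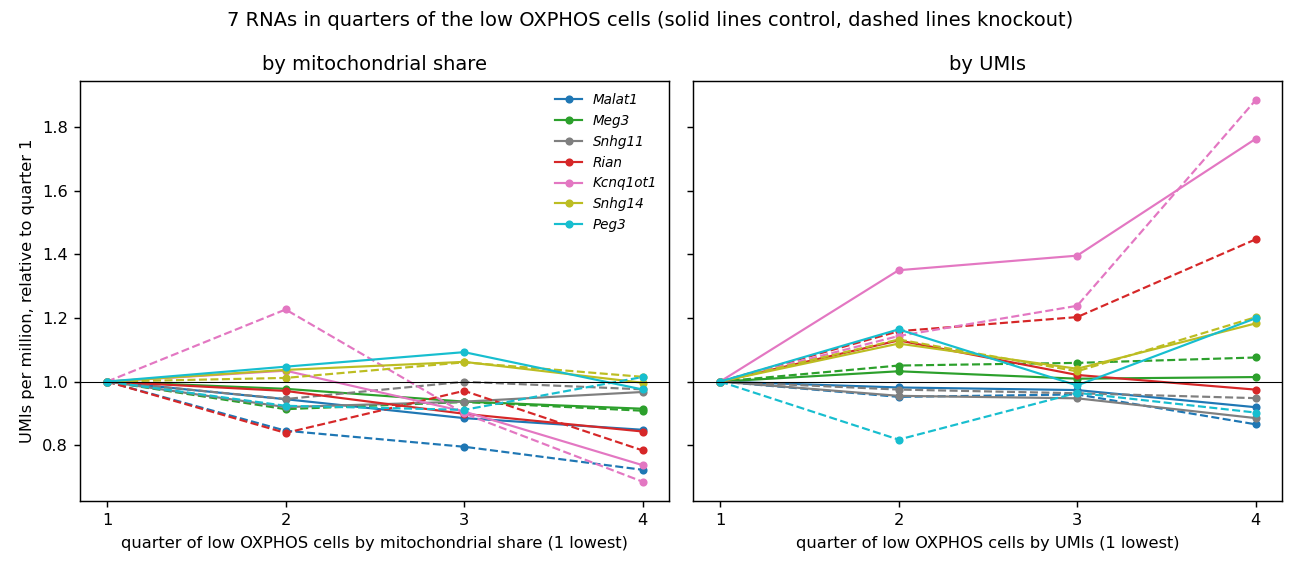
Level of 7 RNAs in 4 equal groups of the low OXPHOS cells, by mitochondrial share (left) and by UMIs per cell (right), each relative to its own level in the lowest group, 230 control (solid lines) and 89 knockout cells (dashed lines) in each. *Kcnq1ot1* stands highest in the deepest cells, at 730 against 414 CPM in the control and 849 against 450 for the knockout, and *Malat1* declines with mitochondrial share from 74695 to 63364 CPM and from 81042 to 58544.

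Over single low cells the 10 RNAs, with their shares log-transformed, varied mostly apart from each other. Of the 45 pairs, *Meg3* and *Rian*, neighbours on chromosome 12, had the highest control value, r = 0.30 in the control and 0.26 in the knockout. *Meg3* and *Snhg11* had 0.29 in the control but 0.06 in the knockout. When each RNA was compared with 2401 genes of at least 0.5 UMIs per cell on average, no gene reached r = 0.3 in both libraries. These values are across cells of 1 library each and in sparse counts, and a low r is no finding.

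Faint barcodes were then compared with the low cells, since droplets without a cell hold free RNA. In the control, 8 of the 10 RNAs were at least 1.5-fold lower in the faint barcodes, against 41.4% of 9033 genes, and in the knockout 8 of 9 with 100 UMIs, against 37.4% of 7913. None of the 10 was 1.5-fold higher, as 33.5% and 37.2% of genes were. Of long noncoding RNAs by GENCODE type, 70.1% of 509 and 63.3% of 308 were at least 1.5-fold lower in faint barcodes. *Neat1* and *Mirg* in the control met the minimum only through the low cells, with 136 and 446 UMIs there against 18 and 55. *Mirg* in the knockout did so as well, with 192 against 36, and so did *Kcnq1ot1* in both libraries. *Kcnq1ot1* stood lowest, with 59 UMIs in 29040 control and 82 UMIs in 75813 knockout barcodes. Its ratios were 0.0449 (0.0341 to 0.0581) and 0.0424 (0.0335 to 0.0530), lower in relation to low cells than those of *Malat1*, 0.103 (0.102 to 0.105) and 0.0993 (0.0978 to 0.101).

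*Snhg14* had ratios of 0.156 (0.134 to 0.180) and 0.197 (0.174 to 0.222) in faint barcodes, *Meg3* 0.225 and 0.203, and *Snhg11* 0.249 and 0.199. *Rian* was less depleted than its neighbour *Meg3*, at 0.369 (0.334 to 0.408) and 0.447 (0.406 to 0.491). *Mirg* differed between the libraries, at 0.320 (0.237 to 0.424) and 0.144 (0.0979 to 0.206). *Miat* was at 0.738 (0.612 to 0.886) and 0.443 (0.345 to 0.566), and *Neat1* at 0.344 in the control and 0.288 in the knockout, the latter from 99 UMIs and under the minimum.

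*Peg3* was not lower, with 337 CPM (313 to 362) in control and 370 (349 to 392) in knockout faint barcodes, ratios of 1.09 (1.00 to 1.19) and 1.36 (1.24 to 1.505). OXPHOS genes summed to 4.61% and 4.44% of UMIs in faint barcodes, 2.85% and 2.81% in high cells and 0.775% and 0.818% in low cells. The split by OXPHOS share set the order of high and low cells in this sum, so only the place of the faint barcodes was free. The levels of 7 of the 10 RNAs, all but *Neat1*, *Miat* and *Peg3*, fell from low to high cells to faint barcodes in both libraries. The share of all genes with such a fall was not counted, so this number has nothing to be set against. For *Mirg* in the control, the intervals of high cells and faint barcodes overlapped. The window does not catch the same droplets in both libraries. In the control, 49419 barcodes held over 100 and under 500 UMIs and 721 held 20 to 50, against 555 and 54440 in the knockout, and *Malat1* in the 721 control barcodes was at 40650 CPM (37968 to 43472).

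The knockout was set against the control within each class, to ask whether loss of capicua went with other levels of these RNAs. The label was checked by genes that capicua is known to repress: in low cells *Etv4* was 31.9-fold (18.2 to 61.1) and *Etv5* 4.96-fold (3.81 to 6.51) higher in the knockout. *Cic* itself was at 56.4 CPM (50.4 to 62.9) in control and 51.4 (42.6 to 61.5) in knockout low cells, and a 3′ tag outside the deleted part checks nothing. In low cells, 0 of the 10 RNAs differed by 1.5-fold or more in either direction, against 2.02% of 8848 genes lower and 2.96% higher.

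The largest ratios in low cells were those of *Neat1*, 1.28 (0.951 to 1.72), and *Meg3*, 1.11 (1.08 to 1.13). *Miat* was at 0.831 (0.698 to 0.985), *Peg3* at 0.881 (0.803 to 0.965) and *Rian* at 0.917 (0.858 to 0.981). The remaining ratios lay between 0.963 for *Snhg14* and 1.06 for *Kcnq1ot1*, and *Malat1* was at 0.991 (0.985 to 0.996). The intervals exclude 1.5-fold for 9 of the 10, all but *Neat1*, as far as counting error goes. With pools of 4 animals and no second library, a ratio such as that of *Meg3* cannot be told apart from the difference between pools.

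In high cells, 7 of the 10 RNAs had 100 UMIs and 0 were past 1.5-fold, against 3.44% of 3051 genes lower and 3.34% higher. *Meg3* was at 1.25 (1.16 to 1.35), *Peg3* at 1.28 (1.05 to 1.55), *Kcnq1ot1* at 1.19 (0.967 to 1.45) and *Malat1* at 1.04 (1.02 to 1.06). *Rian*, *Snhg11* and *Snhg14* were at 1.03, 1.06 and 0.997. Below the minimum, *Miat* was at 2.35 (1.33 to 4.18) from 28 and 26 UMIs, *Mirg* at 1.36 (0.709 to 2.53) and *Neat1* at 1.09 (0.177 to 5.11). *Meg3* was thus the RNA that was higher in the knockout in both classes with both intervals above 1.

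Other genes of the same kinds were taken as lists. These were chosen with earlier results of these data known, so the contrasts between lists are a description and no independent check. Of other nuclear and regulatory long noncoding RNAs, 11 of 15 in the control and 9 of 14 in the knockout were at least 1.5-fold lower in high than in low cells and 1 was higher in each, with median ratios of 0.564 and 0.546. Of all genes, 27.7% and 25.4% were lower and 24.6% and 21.7% higher. Among all long noncoding RNAs that met the minimum, 76.5% and 69.0% were lower, so this list did not stand out from them. *B230323A14Rik* was at 0.564 and 0.523, and *Xist*, the RNA of the inactive X chromosome, at 0.423 and 0.299. In low cells *Xist* was 1.96-fold higher in the knockout, whose pool held more females.

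Long noncoding RNAs of the cytoplasm or linked to ribosomes ran the other way. Of these, 8 of 12 in the control and 5 of 9 in the knockout were at least 1.5-fold higher in the high cells and 1 was lower in each, with median ratios of 2.71 and 2.41. Of all genes, 24.6% and 21.7% were higher in the high cells, and 27.7% and 25.4% lower. *Gas5*, a snoRNA host with a 5′ oligopyrimidine tract, was 4.51-fold and 4.30-fold higher, and *Snhg8* 3.83-fold and 2.41-fold higher. In faint barcodes 12 of 14 and 11 of 13 of this list were at least 1.5-fold higher than in low cells and none was lower, while 12 of 15 and 12 of 14 of the other nuclear RNAs were lower. Of all genes, 33.5% and 37.2% were higher there, and 41.4% and 37.4% lower. Among the other nuclear RNAs, *Xist* in the control met the minimum only through the low cells, with 67 UMIs in faint barcodes against 2706.

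Imprinted protein-coding genes, the class of *Peg3*, were mixed. In high cells 5 of 25 were lower and 9 higher in the control, and 6 of 21 lower and 4 higher in the knockout, with median ratios of 0.901 and 0.795. Of all genes, 27.7% and 25.4% were lower and 24.6% and 21.7% higher, with medians of 0.896 and 0.885. *Gnas*, a G protein subunit, was at 1.84 and 1.30. The proteins of speckles and paraspeckles, the bodies of Malat1 and Neat1, were mixed as well: 4 of 30 lower and 6 higher in the control and 5 of 28 lower and 6 higher in the knockout, with medians of 0.974 and 0.969. *Son*, a speckle scaffold protein, was at 0.608 and 0.676.

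Between the genotypes, 0 of 16 other nuclear RNAs in low cells were 1.5-fold lower and 2 higher, 0 of 12 cytoplasmic RNAs were past the fold, 2 of 25 imprinted protein-coding genes were higher and 1 of 30 speckle proteins was lower. Of all 8848 genes, 2.02% were lower and 2.96% higher. By GENCODE type, counted after the values were seen, 76.5% of 447 long noncoding RNAs and 24.9% of 7854 protein-coding genes were at least 1.5-fold lower in control high cells. In the knockout the shares were 69.0% of 226 and 23.4% of 5000. Most long noncoding RNAs that met the minimum were thus lower in high cells. Sparse genes met it mainly through the low cells, which held 5658000 counted UMIs in the control against 943724 in high cells. By summed UMIs, long noncoding RNAs were 13.7% of control low and 10.4% of control high cells, and 14.1% and 10.5% in the knockout. *Malat1* alone gave 6.89% and 3.12% in the control, and 6.82% and 3.24% in the knockout. The fall of *Malat1* was larger than that of the sum in the control and about equal to it in the knockout. The summed share of the other long noncoding RNAs was therefore not lower in control high cells, and was about level in the knockout.

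Other features moved with the OXPHOS classes. CR markers were found in both, with 8 or 9 of 9 in at least 25% of the cells and a summed level of 12848 to 15517 CPM. *Reln* is 1 of the 9, was required by the gate, and gave 5632 to 8574 CPM of these sums. Genes of neuronal activity and dissociation summed to 1522 and 1411 CPM in low and 4318 and 3510 in high cells. Of these, 9 of 12 were at least 1.5-fold higher in control high cells, against 24.6% of all genes, with *Fos* at 4.47-fold. Astrocyte markers summed to 31.5 and 29.6 CPM in low and 67.8 and 192 in high cells, of which *S100b* alone gave 64.6 and 188 CPM in high cells; it was the one of the 7 markers with 100 UMIs, and *Aqp4* and *Aldh1l1* were at 0 in the high cells of both libraries. GABAergic markers summed to at most 1.06 CPM, and the lists of granule and pyramidal neurons, oligodendrocytes, microglia, vascular, ependymal and red blood cells to 2.12 to 129 CPM. The part of activity genes, of *S100b*, of depth and of mitochondrial share in the differences between classes was not tested.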

How the data were processed

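The authors deposited raw, unfiltered UMI counts of 2 single-cell libraries (10x 3′ chemistry), a gene by barcode table each. The submitters' processing notes name Cell Ranger 8.0.1 and mm39, the methods and the matrix headers name other versions, and the feature identifiers match GENCODE M21 on GRCm38. Whether intronic reads were counted is not given in the sources used here, and it bears on unspliced nuclear RNA. The control library held 16336796 UMIs and the knockout library 6777071, of which 6981296 and 2937321 were in gated cells.

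UMIs were summed per class and divided by UMIs outside mt-, Rpl, Rps and Mrp genes (Python 3.11.15, NumPy 2.4.6, SciPy 1.17.1). Ratios have exact conditional binomial intervals, levels exact Poisson and shares Clopper-Pearson intervals. A gene was counted past 1.5-fold if it had at least 100 UMIs over both groups. The scripts were tested on simulated data. No doublet caller was run, though the paper used DoubletFinder. The alternative without the 1% of cells with the most UMIs does not replace it, since the high cells as a class were deeper. Whether the gated cells include doublets was not tested. All 10 RNAs are named, and of each list up to 4 genes with the most UMIs, plus genes said to be chosen after their values were seen. The RNAs and lists were chosen with earlier results of these data known.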

Additional observations from a re-analysis of the deposited data

Results flagged for a closer look

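For 3 RNAs the ratio of knockout to control lay on opposite sides of 1 in low and in high OXPHOS cells, with intervals that left out 1 in each class. The difference between the classes was not tested, since there is 1 library per genotype. *Malat1* was at 0.991 in low and 1.04 in high cells, both within 5% of no difference. *Miat* was at 0.831 and 2.35, the latter from 28 and 26 UMIs. *Peg3* was at 0.881 and 1.28.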

How the results depend on the processing

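No paired analysis was possible because each genotype had 1 library, and for the same reason no replicate could be left out. Of 113 counts of RNAs past 1.5-fold under another setting, 110 were within 1.5 times the reported count. The other 3 concern knockout against control in high cells, where 0 became 1 in cells with no *Xist* UMI, 2 in cells with at least 1 *Xist* UMI (9 knockout and 19 control cells) and 1 with no minimum of UMIs. Of 1129 ratios, 979 stayed inside the reported interval and 148 lay outside it. Crossing to the other side of 1 happened in 33 of the 1129, of which 21 concern knockout against control in high cells, where *Snhg14*, at 0.997, kept its side in 13 of 19. Of RNAs past 1.5-fold, 2 crossed, both against control faint barcodes of 20 to 50 UMIs, where *Neat1* was at 1.98 (0.0498 to 11.2) and *Mirg* at 1.81 (0.373 to 5.33). The cause was not tested. *Malat1* in high over low cells ran from 0.386 to 0.506 in the control and from 0.447 to 0.537 in the knockout. *Peg3* ran from 0.835 to 1.12 and from 1.13 to 1.93, past 1.5-fold in the knockout with the median ratio of all genes set to 1 (1.59) and in cells with at least 1 *Xist* UMI (1.93). *Rian* in the knockout lost its call under the same 2 settings, at 0.725 and 0.774, and in cells with at least 1 *Xist* UMI *Rian* (0.695) and *Kcnq1ot1* (0.670) lost theirs in the control. With every cell weighted equally, *Mirg* in the knockout lost its call (0.875). *Miat* in the knockout passed 1.5-fold in cells with no *Xist* UMI (0.595) and stood at 1.28 (0.689 to 2.23) in those with at least 1. In control faint barcodes of 20 to 50 UMIs *Rian* lost its call (0.683). After thinning, knockout over control in high cells was 0.625 for *Rian* and 1.54 for *Kcnq1ot1*. Depth limits *Neat1*, *Mirg* and *Miat*, and the 34 knockout high cells limit every knockout value of that class.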

Other observations

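Between the faint barcodes and the gated cells lay 191 control and 51 knockout barcodes of at least 500 and under 2000 UMIs, used in no comparison above. *Malat1* in them was at 20512 CPM (19788 to 21255) and 12080 (11030 to 13204), between its levels in faint barcodes and in high OXPHOS cells. No *Malat1* UMI was found in 79 and 27 of them, and of these 57 and 16 had a *Reln* UMI. Their summed OXPHOS share was 2.88% and 3.27%, and *Reln* was at 6210 and 4971 CPM.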
